A study of Homo sapiens with 27 samples.

Results

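The response to 500 nM IPI-9119 that 3 human prostate cancer cell lines had in common was described from 18 of the 27 RNA sequencing libraries of the study, 9 treated with the drug at 500 nM and 9 with its vehicle DMSO. IPI-9119 is an inhibitor of fatty acid synthase (FASN). Each of the 6 groups had 3 replicates: LNCaP, 22Rv1 and LNCaP95 at 500 nM, and LNCaP, 22Rv1 and LNCaP95 in DMSO, each for 6 days in medium that was not replaced. The labels call LNCaP androgen sensitive and the other lines castration resistant. LNCaP95 is a derivative of LNCaP grown without androgen, so these lines share their origin. The labels do not say that replicates were separate cultures, so the spread behind each p-value is that of the libraries and may be only technical. All libraries were chosen by their labels, and no measured value entered the choice. The 500 nM effect was the average log2 difference from DMSO with the line as a block, and the text describes the genes that moved the same way in each line.

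FASN joins malonyl-CoA units into palmitate, and prostate cancers are known for high FASN. Genes for making fatty acids and cholesterol are switched on by the SREBP factors, which are held in the endoplasmic reticulum by INSIG proteins when sterols are plentiful and are released when they are scarce. Sterol derivatives activate the LXR receptors, whose targets export cholesterol and remodel phospholipids, while malonyl-CoA, the substrate of FASN, blocks the carnitine shuttle that brings fatty acids to mitochondrial oxidation.

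SREBP factors bind the sterol regulatory element, and the promoters shown here are those of the 3 genes called higher in each line that held the SRE-1 motif. Each is printed from 250 bases before the transcription start up to the start, on the strand of the gene, from RefSeq on GRCh38.p14, with the motif in capitals. SREBF2 encodes SREBP-2 itself (chr22:41832855-41833104, plus strand), ACSL1 an enzyme that activates long fatty acids (chr4:184805554-184805803, minus strand) and TIPARP a mono-ADP-ribosyltransferase (chr3:156674340-156674589, plus strand). TIPARP was chosen after its values were seen, as the only other gene that met this criterion.
SREBF2: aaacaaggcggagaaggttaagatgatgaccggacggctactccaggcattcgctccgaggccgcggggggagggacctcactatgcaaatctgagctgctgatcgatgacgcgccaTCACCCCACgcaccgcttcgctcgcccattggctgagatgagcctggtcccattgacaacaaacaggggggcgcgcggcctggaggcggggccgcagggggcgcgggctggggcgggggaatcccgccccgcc
ACSL1: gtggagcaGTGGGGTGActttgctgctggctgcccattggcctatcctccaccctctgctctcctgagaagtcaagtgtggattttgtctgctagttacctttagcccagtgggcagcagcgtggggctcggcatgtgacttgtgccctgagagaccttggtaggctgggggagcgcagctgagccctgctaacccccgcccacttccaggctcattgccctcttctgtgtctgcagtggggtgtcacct
TIPARP: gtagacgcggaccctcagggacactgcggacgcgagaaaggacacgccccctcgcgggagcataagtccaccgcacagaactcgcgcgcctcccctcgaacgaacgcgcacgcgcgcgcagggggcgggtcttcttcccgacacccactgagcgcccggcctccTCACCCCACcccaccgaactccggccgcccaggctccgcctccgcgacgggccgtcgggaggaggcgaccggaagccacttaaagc
The first base of the motif lay at -133 in SREBF2 and at -86 in TIPARP. In ACSL1 the motif was on the opposite strand, with its first printed base at -242. The search took TCACNCCAC on both strands in windows of 300 bases, 250 before and 50 after the start. SRE-1 was in 106 of the 9598 promoters of tested genes found in the table (1.1%), in 18 of 1064 promoters of genes called higher with the same direction in each line (1.69%) and in 5 of 798 of those called lower (0.627%). Among genes called within each line it was in 3 of 140 rises (2.14%) and 0 of 33 falls. The CCAAT box, searched as CCAAT on both strands, was in 63 of 140 promoters of the rises called within each line (45%), against 3534 of all 9598 (36.8%). The other motifs searched on both strands were the GC box GGGCGG, in 98 of the 140 (70.0%) against 6734 of all (70.2%), the E-box CACGTG, in 16 (11.4%) against 979 (10.2%), the ATF4 element TGATGNAA, in 0 against 159 (1.66%), and the LXR element DR4, in 0 against 1. These shares are descriptions, and a match is not a binding site.

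Libraries held 15073809 to 25731706 reads in genes. The values are normalised counts, and the tests were made with limma on log2(value + 1), which understates changes of low genes, except where another tool is named. Of 20987 genes, 11612 had a value of 10 or more in at least 3 libraries of each line and were tested. A further 2755 genes passed in only 1 or 2 of the lines. Near that limit, 96 tested genes had their third-highest value in the lowest line between 10 and 11, and 97 genes left out had it between 9 and 10. Some libraries stood apart. LNCaP DMSO replicate 1 had a mean log2 value of 10.1 for 26 mitosis genes, against 8.63 and 8.45 in the other LNCaP DMSO libraries, 22Rv1 DMSO replicate 3 had 18444 genes above 0, against at most 15860 in the other libraries, and LNCaP95 500 nM replicate 2 had 6.92% of its reads on mitochondrial genes. Luminal epithelial markers had sums of 87390 to 96330 normalised counts at 500 nM, against 104100 to 119300 in DMSO, in LNCaP. The ranges were 56660 to 60720 at 500 nM, against 53800 to 58460 in DMSO, in 22Rv1, and 65570 to 70550 at 500 nM, against 55840 to 57930 in DMSO, in LNCaP95, with 2 of the 10 called higher and 4 lower on average, where 13.0% of all genes tested were called higher and 9.86% lower. The basal list summed to 8108 to 9871 at 500 nM, against 2606 to 3247 in DMSO, in LNCaP, carried by LAMA3 and DST. It summed to 1331 to 1685 at 500 nM, against 1351 to 1464 in DMSO, in 22Rv1 and to 5289 to 7732 at 500 nM, against 2952 to 4100 in DMSO, in LNCaP95, while the defining basal genes KRT5 and TP63 reached at most 2.4 and 6.19 in any library. The leukocyte list summed to 88.5 to 103.5 at 500 nM, against 29.4 or less in DMSO, in LNCaP, and its ranges overlapped in the other lines. The part of these sums in the results was not tested. DES of smooth muscle and PECAM1 of endothelium were at 0 in each library. In bulk samples, fewer cells of a type and less RNA per cell cannot be told apart.

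Averaged over the lines, 1513 genes rose with 500 nM (13.0% of 11612) and 1145 fell (9.86%), at an adjusted p under 0.05. The median effect of all genes was -0.01. Of the called genes, 1280 were higher in each line (11.0% of genes tested) and 958 lower in each line (8.25%), while 420 had line effects of mixed sign. A stricter count took genes called within each line in 1 direction: 162 rose (1.40%) and 42 fell (0.362%). The groups did not overlap in any line for 361 genes that were higher (3.11%) and 145 that were lower (1.25%). Without the LNCaP replicate 1 libraries of both groups and 22Rv1 DMSO replicate 3, the counts within each line were 181 and 36. With LNCaP95 500 nM replicate 2 left out too, an alternative chosen after seeing the data, they were 163 and 30, and the falls on average numbered 703. Leaving out 1 library at a time moved the 42 falls by over 1.5 times without 22Rv1 DMSO replicate 2 (22), DMSO replicate 3 (27), 500 nM replicate 1 (21) and 500 nM replicate 2 (23). The average effect is weighed against the spread of libraries and of line effects in these lines alone: with a single value per line, limma called 0 genes (893 at an unadjusted p under 0.05, smallest adjusted p 0.0529). The average is therefore given together with the line effects.

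The lines differed widely in their responses. Within LNCaP, 1652 genes were called higher (14.2%) and 1531 lower (13.2%). In 22Rv1, 742 were higher (6.39%) and 512 lower (4.41%), and in LNCaP95, 2817 were higher (24.3%) and 2546 lower (21.9%). The effect differed between lines for 5201 genes (44.8%) by limma's F test. Of the 1728 genes called both in LNCaP and in LNCaP95, 933 had opposite directions. The opposite calls were 123 of 510 genes for LNCaP and 22Rv1, and 112 of 737 genes for 22Rv1 and LNCaP95. Across the 11612 genes, Pearson's r of the line effects was 0.178 for LNCaP and 22Rv1, 0.323 for 22Rv1 and LNCaP95 and -0.03 for LNCaP and LNCaP95, a description over genes that share libraries and are not independent.

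**Figure D1:**
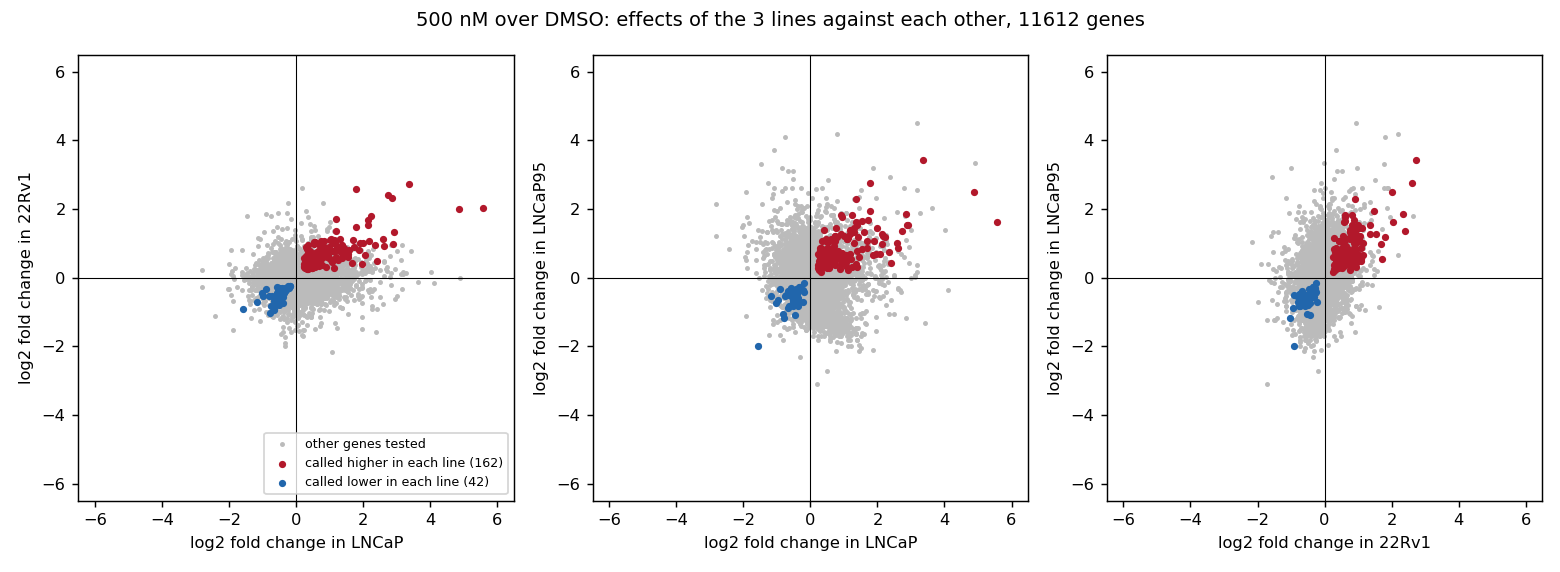
Log2 fold changes at 500 nM over DMSO of the 11612 genes tested, with each pair of lines in a panel (first line on the x axis, second on the y axis). The 162 genes called higher and 42 called lower within each line are coloured and lie at the upper right and lower left by their definition, while the grey cloud of LNCaP against LNCaP95 (r of -0.03) also spreads to the corners of opposite sign.

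The shared rises were larger than the shared falls. At least 2-fold changes in each line were seen in 17 of the genes called higher within each line and in 0 of those called lower. The 162 rises had a median log2 effect of 0.71 in LNCaP, 0.62 in 22Rv1 and 0.67 in LNCaP95, and the 42 falls had -0.52, -0.47 and -0.55 in the same lines. LNCaP95 gave the largest effect in 70 of the 162 rises, LNCaP in 59 and 22Rv1 in 33. The test of the difference between lines was passed by 67 of these 204 genes and missed by 137.

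Most genes of the SREBP system rose. Of 13 tested genes for SREBP factors, their regulators and sterol uptake, 8 rose and 0 fell in the average effect, and 4 rose within each line, with a median log2 effect of 0.57. The median over all genes was -0.01, and it stands beside every list below, as do 13.0% of genes higher and 9.86% lower on average. The shares called within each line, 1.40% higher and 0.362% lower, also stand beside each list, and a count of 0 in a short list is near them. SREBF1 stood at 22346, 22074 and 20414 normalised counts in the LNCaP libraries at 500 nM, against 10858, 9146 and 8440.0 in DMSO. In 22Rv1, SREBF1 had 33704, 32811 and 33921 at 500 nM, against 15033, 12248 and 12052 in DMSO. In LNCaP95, SREBF1 had 15240.5, 14334 and 15038 at 500 nM, against 6114, 6046 and 6306 in DMSO. This gene, which encodes SREBP-1, was higher in each treated library than in any DMSO library of its line. Its log2 fold change was 1.28 ± 0.061 (adjusted p = 2.52e-10), and the line effects of 1.20 in LNCaP, 1.36 in 22Rv1 and 1.27 in LNCaP95 had an adjusted p of 0.557 for their difference.

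SREBF2 stood at 9539, 8008 and 8065 normalised counts in the LNCaP libraries at 500 nM, against 6896, 4904 and 4794 in DMSO. In 22Rv1, SREBF2 had 14772, 14856 and 15716 at 500 nM, against 11091, 10745 and 11150.2 in DMSO. In LNCaP95, SREBF2 had 12162, 10149.7 and 10002 at 500 nM, against 6534, 6095 and 6045 in DMSO. SREBF2, whose promoter is shown above, did not overlap between the groups in any line. Its log2 fold change was 0.63 ± 0.076 (adjusted p = 1.93e-05). The call within 22Rv1 (log2 0.46) was lost without 22Rv1 500 nM replicate 3. INSIG1, an SREBP target whose protein retains the SREBP complex, rose by a log2 fold change of 1.80 ± 0.24 (adjusted p = 4.24e-05), with 2.87 in LNCaP, 0.99 in 22Rv1 and 1.54 in LNCaP95. In 22Rv1, INSIG1 had 7340.0, 6372 and 6694 at 500 nM, against 3417, 3161 and 3676 in DMSO, the narrowest gap of the lines. That line's call was lost without 22Rv1 DMSO replicate 2 or 500 nM replicate 1, and the line effects differed (adjusted p = 0.00103). The count of 4 genes called within each line was 2 without 22Rv1 DMSO replicate 2 or without 22Rv1 500 nM replicate 1. STARD4, a sterol carrier protein and the remaining gene of the 4, was named after its values were seen and had 2.34 in LNCaP, 0.94 in 22Rv1 and 0.75 in LNCaP95.

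FASN, the target of the drug, rose in each line. Of 9 tested genes for fatty acid synthesis and the supply of acetyl-CoA or NADPH, 7 rose on average and 1 fell, and 4 rose within each line (FASN, ACACA, ACSS2 and ME1), with a median of 0.59. FASN stood at 234767, 133676 and 126294 normalised counts in the LNCaP libraries at 500 nM, against 54998, 29273 and 28676 in DMSO. In 22Rv1, FASN had 151109, 136200.0 and 146463 at 500 nM, against 53463, 39826 and 43153 in DMSO. In LNCaP95, FASN had 90036, 73703 and 66479.5 at 500 nM, against 40436, 41132 and 34549.5 in DMSO. In LNCaP, replicate 1 was the highest library of both groups, and the groups did not overlap in any line. FASN changed by 1.60 ± 0.18 on the log2 scale (adjusted p = 8.15e-06), with 2.14 ± 0.23 in LNCaP, 1.68 ± 0.23 in 22Rv1 and 0.98 ± 0.23 in LNCaP95, and these line effects differed (adjusted p = 0.0183). ACACA, which makes malonyl-CoA, rose by 0.85 ± 0.11 (adjusted p = 4.14e-05). In LNCaP95, ACACA had 13878, 12149.8 and 10146 at 500 nM, against 9052, 9009 and 7839 in DMSO, and this line's call was lost without DMSO replicate 3 or 500 nM replicate 1. ACSS2, which makes acetyl-CoA from acetate, rose by 0.95 ± 0.14 (adjusted p = 0.000105), and its LNCaP95 call was lost without DMSO replicate 1, DMSO replicate 2 or 500 nM replicate 3. ME1, malic enzyme and a source of NADPH, rose by 0.86 ± 0.087 (adjusted p = 3.76e-06), with 0.54 in LNCaP, 0.98 in 22Rv1 and 1.05 in LNCaP95. ACLY, which cleaves citrate to acetyl-CoA, was called on average at 0.31 ± 0.11 (adjusted p = 0.0444) but had -0.07 in LNCaP95, and its call was lost on leaving out single libraries. The member that fell was MLXIPL, which encodes the carbohydrate-responsive factor ChREBP, at -0.51 (adjusted p = 0.0176), a gene named after its values were seen, whose call was lost when the 4 libraries left out above were missing.

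Of 11 desaturases and elongases tested, 7 rose and 0 fell on average, and 2 rose within each line, with a median of 0.39. SCD inserts the first double bond into stearate and palmitate. SCD stood at 37018, 24229 and 28192 normalised counts in the LNCaP libraries at 500 nM, against 8612, 2905 and 2671 in DMSO. In 22Rv1, SCD had 62139.9, 62141 and 59819 at 500 nM, against 9875, 13274 and 13882 in DMSO. In LNCaP95, SCD had 26898, 19252 and 18015 at 500 nM, against 6626, 4453 and 6592 in DMSO. The treated libraries were above all DMSO libraries of their line, and LNCaP DMSO replicate 1 was the highest of its group. SCD changed by 2.35 ± 0.20 in log2 terms (adjusted p = 5.42e-07), with 2.85 ± 0.30 in LNCaP, 2.33 ± 0.30 in 22Rv1 and 1.86 ± 0.30 in LNCaP95. FADS2, the delta-6 desaturase of polyunsaturated fatty acids, rose by 1.11 ± 0.16 (adjusted p = 0.000144), with 1.86 in LNCaP, 0.81 in 22Rv1 and 0.67 in LNCaP95. FADS1, the delta-5 desaturase, averaged 0.63 ± 0.10 (adjusted p = 0.000394) and was not called within 22Rv1 (0.34, adjusted p = 0.184). ELOVL6, which lengthens palmitate to stearate, had opposite directions in the lines, and 1 other gene of the list was called lower within LNCaP. ELOVL6 stood at 1373, 711 and 898 normalised counts in the LNCaP libraries at 500 nM, against 284, 192 and 223 in DMSO. In 22Rv1, ELOVL6 had 1606, 1675 and 1542 at 500 nM, against 936, 1028 and 1106 in DMSO. In LNCaP95, ELOVL6 had 416, 429 and 417 at 500 nM, against 649, 614 and 619 in DMSO. ELOVL6 was higher in LNCaP and 22Rv1 and lower in LNCaP95, with log2 effects of 2.05 in LNCaP, 0.65 in 22Rv1 and -0.57 in LNCaP95, each called within its line, and the difference between lines had an adjusted p of 7.08e-07.

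**Figure D2:**
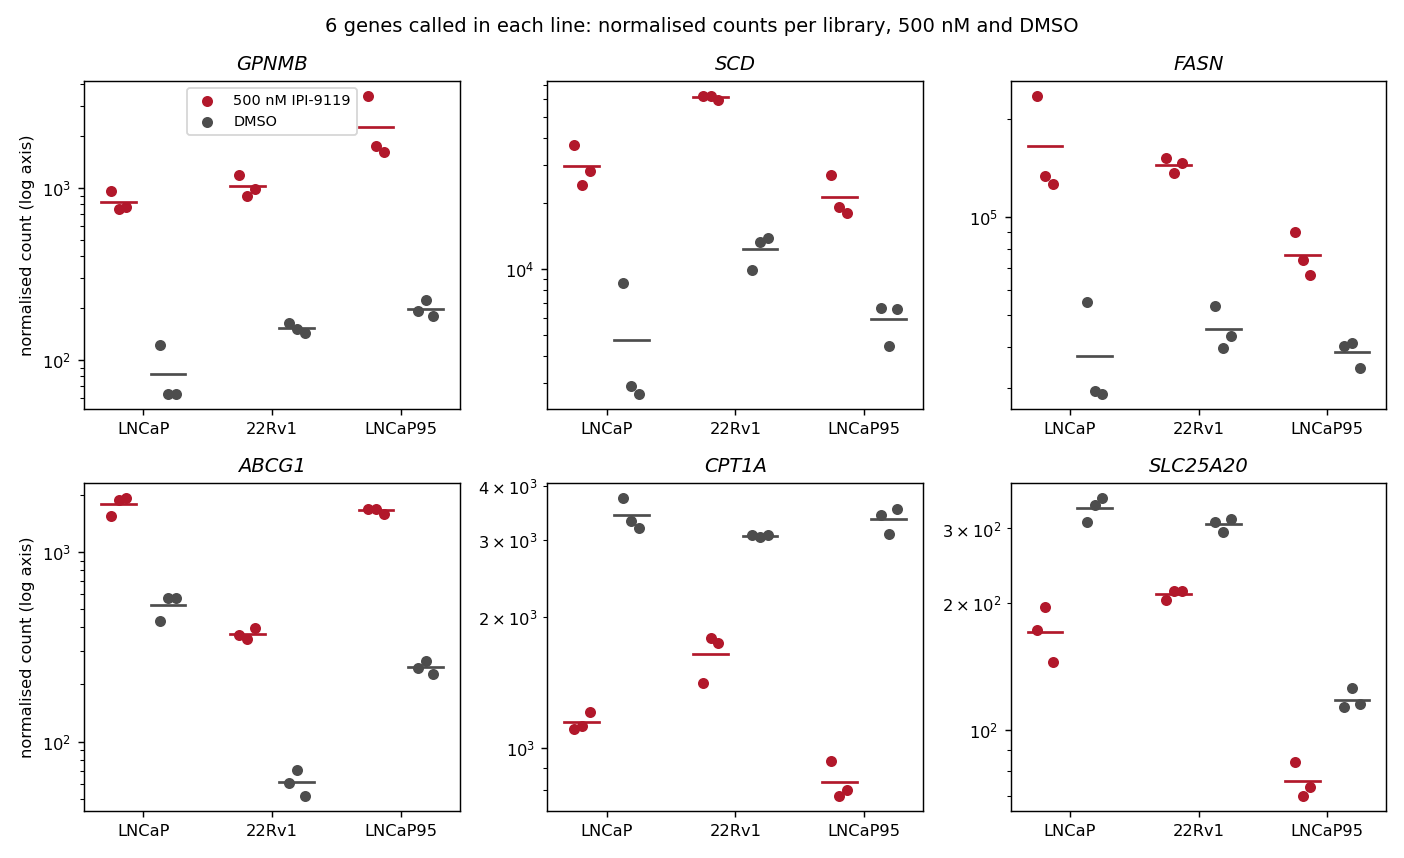
Normalised counts (log axis) of 6 genes called within each line, with each point a library, 500 nM on the left of DMSO in each line, and a bar at the mean of 3 libraries. The groups do not overlap in any line: GPNMB, SCD, FASN and ABCG1 lie higher at 500 nM, and CPT1A and SLC25A20 lie lower. GPNMB and SLC25A20 were among the genes chosen for no overlap, so for them it follows from that choice.

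Most genes of cholesterol synthesis rose. Of 10 genes of the mevalonate pathway to squalene, 7 rose on average and 0 fell, and 6 rose within each line, with medians of 1.25 in LNCaP, 0.68 in 22Rv1 and 0.65 in LNCaP95. HMGCS1 stood at 8767, 3778 and 4049 normalised counts in the LNCaP libraries at 500 nM, against 1159, 1109 and 1132 in DMSO. In 22Rv1, HMGCS1 had 14248, 14012 and 13285 at 500 nM, against 6978, 5919 and 7019.5 in DMSO. In LNCaP95, HMGCS1 had 4938, 4016 and 4913 at 500 nM, against 2006, 1791 and 2114 in DMSO. HMGCS1, which makes HMG-CoA, was above DMSO in each treated library and rose by 1.49 ± 0.16 (adjusted p = 6.89e-06), more in LNCaP (2.17) than in 22Rv1 (1.06) and LNCaP95 (1.23), with an adjusted p of 0.00671 for the difference. IDI1, the isomerase of the isoprene unit, rose by 1.02 ± 0.12 (adjusted p = 1.15e-05), and MVD, which makes that unit, by 0.94 ± 0.12 (adjusted p = 3.33e-05). MVK at 0.83 and FDFT1, squalene synthase, at 1.14 were also called within each line and were named after their values were seen.

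Of 12 genes from squalene to cholesterol, 10 rose and 1 fell on average, and 5 rose within each line, with medians of 0.91 in LNCaP, 0.57 in 22Rv1 and 0.65 in LNCaP95. Without the LNCaP replicate 1 libraries and 22Rv1 DMSO replicate 3, 9 rose within each line. LSS, which closes squalene epoxide to lanosterol, rose by 1.33 ± 0.14 (adjusted p = 4.21e-06), with 1.90 in LNCaP, 1.01 in 22Rv1 and 1.06 in LNCaP95. MSMO1, the C4 sterol methyl oxidase, rose by 1.24 ± 0.12 (adjusted p = 2.54e-06). DHCR7, which makes cholesterol from 7-dehydrocholesterol, rose by 1.05 ± 0.11 (adjusted p = 6.4e-06). DHCR7 stood at 12636, 8053 and 7794 normalised counts in the LNCaP libraries at 500 nM, against 5253, 3181 and 3208 in DMSO. In 22Rv1, DHCR7 had 11184, 10312 and 10948 at 500 nM, against 6087, 5675 and 6067 in DMSO. In LNCaP95, DHCR7 had 11553, 10148 and 9436 at 500 nM, against 5566, 4254 and 5872 in DMSO. No DHCR7 value of the treated libraries fell within the DMSO range of its line. SC5D, a sterol desaturase, rose by 0.83 ± 0.10 (adjusted p = 1.23e-05), with its largest effect in LNCaP95 (1.23). SQLE, the squalene epoxidase, rose by 0.74 ± 0.10 on average (adjusted p = 7.04e-05), with 0.31 in 22Rv1, which missed the threshold (adjusted p = 0.0902). The member that fell was LBR, a lamin B receptor with sterol reductase activity, at -0.26 (adjusted p = 0.0205), named after its values were seen. That call was lost when LNCaP95 500 nM replicate 2 was left out beside the 3 libraries above.

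A few LXR targets rose in each line. Of 8 tested LXR targets and sterol export genes, 3 rose on average and within each line, and 0 fell (1 without 22Rv1 DMSO replicate 2), with a median of 0.58. ABCG1 passes cholesterol to lipoprotein particles. ABCG1 stood at 1555, 1883 and 1938 normalised counts in the LNCaP libraries at 500 nM, against 434, 573 and 575 in DMSO. In 22Rv1, ABCG1 had 366, 349 and 398 at 500 nM, against 60.6, 71.0 and 51.6 in DMSO. In LNCaP95, ABCG1 had 1691, 1695 and 1599 at 500 nM, against 245, 268 and 226 in DMSO. ABCG1 was higher in each treated library, and the widest relative gap was in LNCaP95. It rose by 2.37 ± 0.13 (adjusted p = 4.57e-10), and the line effects of 1.77 ± 0.13 in LNCaP, 2.59 ± 0.13 in 22Rv1 and 2.75 ± 0.13 in LNCaP95 differed (adjusted p = 0.000561). MYLIP, a ubiquitin ligase, rose by 0.70 ± 0.092 (adjusted p = 4.82e-05). LPCAT3, which puts polyunsaturated acyl chains into phospholipids, rose by 0.69 ± 0.053 (adjusted p = 1.23e-07), with 0.76 in LNCaP, 0.56 in 22Rv1 and 0.76 in LNCaP95. ABCA1, a further cholesterol exporter, did not follow: its effects were 1.02 in LNCaP, 1.62 in 22Rv1 and -0.84 in LNCaP95, and its average of 0.60 ± 0.31 did not pass (adjusted p = 0.18).

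A pair of carnitine shuttle genes fell in each line. Of 25 tested genes of the shuttle and of beta-oxidation, 9 fell and 4 rose on average, 2 fell within each line, and the median was -0.08. CPT1A is the outer membrane transferase that commits fatty acids to mitochondrial oxidation and that malonyl-CoA inhibits. CPT1A stood at 1107, 1121 and 1209.8 normalised counts in the LNCaP libraries at 500 nM, against 3752, 3322 and 3189 in DMSO. In 22Rv1, CPT1A had 1409, 1783 and 1740.3 at 500 nM, against 3081, 3050.4 and 3082 in DMSO. In LNCaP95, CPT1A had 935, 775 and 799 at 500 nM, against 3415, 3091 and 3541 in DMSO. CPT1A was lower in each treated library than in each DMSO library of its line, by the widest margin in LNCaP95. The log2 fold change was -1.50 ± 0.12 (adjusted p = 1.83e-07), and the line effects of -1.57 ± 0.10 in LNCaP, -0.91 ± 0.10 in 22Rv1 and -2.00 ± 0.10 in LNCaP95 differed (adjusted p = 2.05e-05). SLC25A20 stood at 173, 196 and 145 normalised counts in the LNCaP libraries at 500 nM, against 312, 341 and 355 in DMSO. In 22Rv1, SLC25A20 had 203, 214 and 214 at 500 nM, against 311, 294 and 317 in DMSO. In LNCaP95, SLC25A20 had 84.0, 70.0 and 73.7 at 500 nM, against 114, 126 and 115 in DMSO. SLC25A20, the carrier that exchanges acylcarnitine for carnitine, averaged -0.72 ± 0.084 (adjusted p = 1.29e-05). It was among the falls chosen for no overlap in any line, so its lack of overlap follows from that choice. ACAA2, a thiolase of the last oxidation step, averaged -0.72 ± 0.12 (adjusted p = 0.000515) but was not called within LNCaP (-0.28, adjusted p = 0.231). The 2 falls within each line were both in the shuttle. Without LNCaP 500 nM replicate 2, 1 gene of the list was called higher within each line.

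Other enzymes that handle acyl-CoA also fell. Among 10 tested thioesterases and ACSM or ACSF synthetases, a family set up after its members' values were seen, 3 fell and 0 rose on average, and the same 3 fell within each line. ACSM3, a medium-chain acyl-CoA synthetase of mitochondria, had 332, 420.0 and 383 at 500 nM, against 599, 786 and 647 in DMSO in LNCaP95 and averaged -0.69 ± 0.079 over the lines (adjusted p = 1.15e-05). ACSF2, also a medium-chain acyl-CoA synthetase, averaged -0.59 ± 0.10 (adjusted p = 0.000443), and its call within each line was lost in 12 of 18 fits that left out 1 library. CAT, the peroxisomal catalase, which belongs to none of the lists and was named after its values were seen, had -0.62 in LNCaP, -0.77 in 22Rv1 and -0.47 in LNCaP95, each called.

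Some genes that activate fatty acids or build them into lipids rose. Of 12 tested genes for fatty acid uptake, binding and activation, 5 rose and 0 fell on average (1 without LNCaP95 DMSO replicate 1), with 2 rises within each line and a median of 0.13. In LNCaP 5 rose and 1 fell, in 22Rv1 3 rose and 1 fell, and in LNCaP95 4 rose and 2 fell. ACSL1 stood at 14298, 9536 and 9706 normalised counts in the LNCaP libraries at 500 nM, against 9094, 4778 and 4491 in DMSO. In 22Rv1, ACSL1 had 1448, 1322 and 1393 at 500 nM, against 791, 856 and 758 in DMSO. In LNCaP95, ACSL1 had 13092, 10106 and 11226 at 500 nM, against 5128, 4233 and 4953 in DMSO. ACSL1, whose promoter is shown above, was higher in each treated library and rose by 0.99 ± 0.12 (adjusted p = 2.64e-05), with the 22Rv1 call lost without 500 nM replicate 1. ACSL3, the long-chain synthetase of lipid droplets, rose by 0.59 ± 0.091 (adjusted p = 0.000196), most in 22Rv1 (0.97). Its LNCaP call was lost without DMSO replicate 2, DMSO replicate 3 or 500 nM replicate 1. The count of 2 rises within each line was then 1, as it was without 22Rv1 500 nM replicate 1. Of 19 tested genes for triglycerides and lipid droplets, 4 rose and 1 fell on average. LPIN1, the phosphatidate phosphatase that makes diacylglycerol, was the 1 called within each line. LPIN1 stood at 4006, 2458 and 2665 normalised counts in the LNCaP libraries at 500 nM, against 572, 465 and 459 in DMSO. In 22Rv1, LPIN1 had 1168, 1423 and 1268 at 500 nM, against 568, 526 and 656 in DMSO. In LNCaP95, LPIN1 had 2348, 1604 and 1986 at 500 nM, against 1008, 884 and 1046 in DMSO. LPIN1 libraries did not overlap, and its average of 1.57 ± 0.19 (adjusted p = 1.98e-05) combined 2.58 in LNCaP, 1.14 in 22Rv1 and 1.0 in LNCaP95, which differed (adjusted p = 3.37e-05). Without LNCaP95 DMSO replicate 2, 2 genes of the list were called lower on average. Within LNCaP, 2 genes of the list rose and 2 fell. In 22Rv1 1 rose and 3 fell, and in LNCaP95 8 rose and 3 fell.

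Of 21 genes for phospholipids, 8 rose and 0 fell on average, with a median of 0.11, and LPCAT3 and LPCAT1 rose within each line. LPCAT1, which makes saturated phosphatidylcholine, had 1.05 in LNCaP, 0.77 in 22Rv1 and 0.34 in LNCaP95, with an adjusted p of 0.000372 for the difference. Without 22Rv1 DMSO replicate 2, 1 gene of the list was called lower on average. Within LNCaP, 7 genes of this list rose and 1 fell, and within 22Rv1 5 rose and 2 fell. Within LNCaP95, 8 rose and 3 fell, and the effect differed between lines for 14 of the 21. Of 17 genes for sphingolipid synthesis, which starts from palmitoyl-CoA, 6 rose and 0 fell on average, with a median of 0.22. Within LNCaP95, 11 of these rose (median 0.36), within LNCaP 5 rose and 1 fell (0.14), and within 22Rv1 2 rose (0.06). The effect differed between lines for 10 of the 17. UGCG, which makes glucosylceramide, had 549.5, 488 and 554 at 500 nM, against 292, 320.4 and 328 in DMSO in LNCaP and rose by 0.67 ± 0.067 (adjusted p = 3.05e-06), with 0.76 in LNCaP, 0.68 in 22Rv1 and 0.57 in LNCaP95. ORMDL2, of a family that restrains the first enzyme of this pathway, rose by 0.48 ± 0.07 (adjusted p = 0.000118). SPTLC2, a subunit of that enzyme, averaged 0.37 ± 0.086 (adjusted p = 0.00477) and passed within LNCaP95 alone of the lines.

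**Figure D3:**
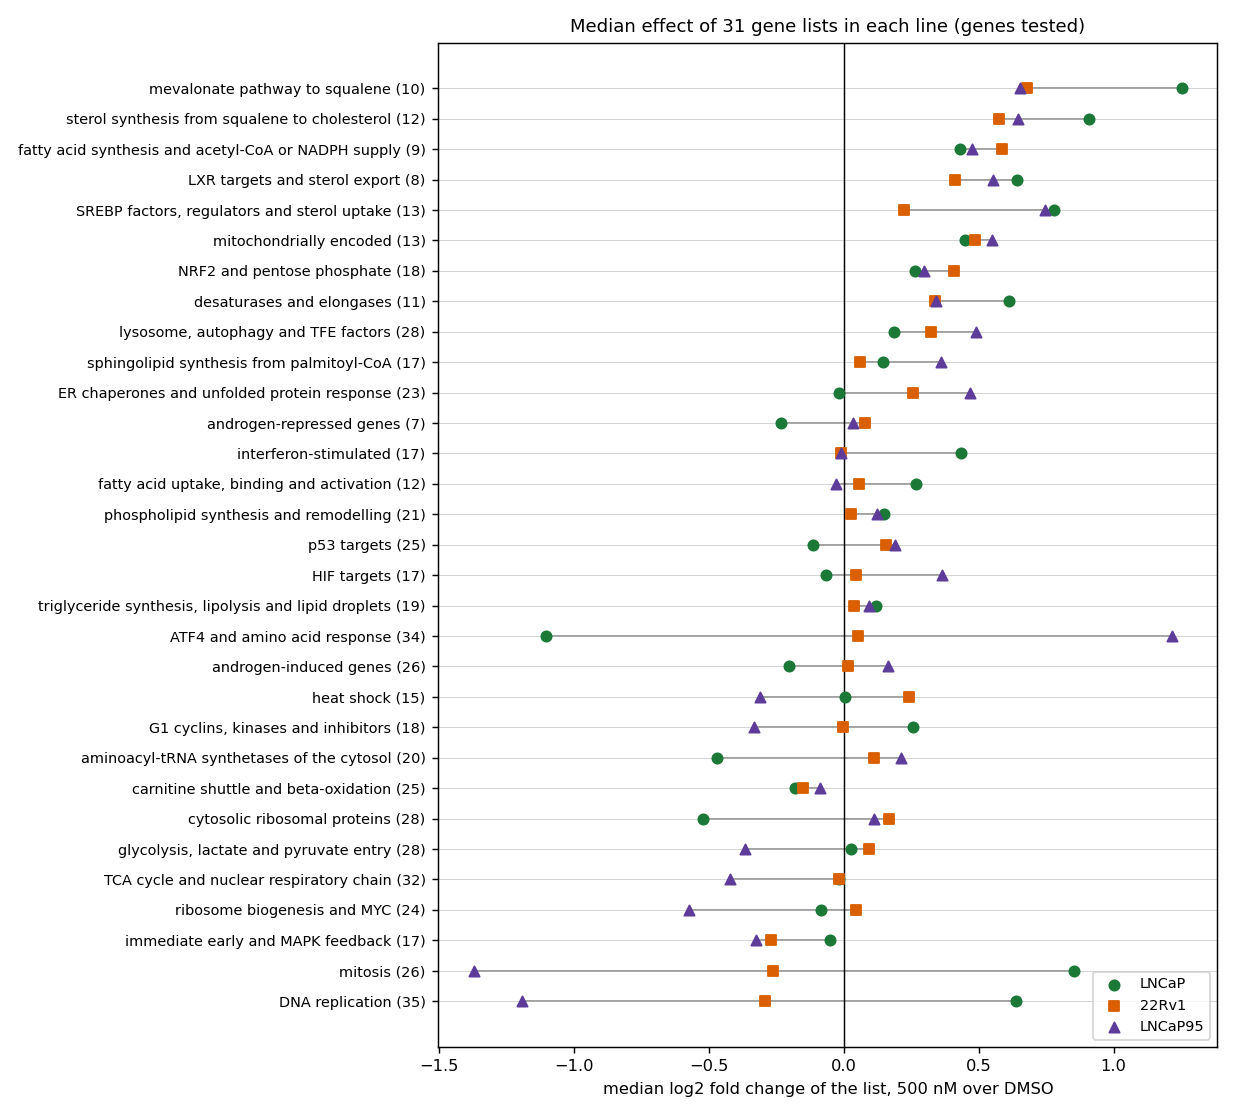
Median log2 fold change (500 nM over DMSO, x axis) of 31 gene lists in LNCaP (circles), 22Rv1 (squares) and LNCaP95 (triangles), ordered by each list's median of the average effect, with the number of genes tested in brackets. The lipid lists at the top lie above 0 in each line, while the ATF4, mitosis and DNA replication lists have LNCaP and LNCaP95 on opposite sides of 0.

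Many lysosomal genes rose. Of 28 genes for lysosome, autophagy and the TFE factors that govern them, 19 rose and 0 fell on average, 6 rose within each line, and the medians were 0.19 in LNCaP, 0.32 in 22Rv1 and 0.49 in LNCaP95. Within LNCaP 11 rose and 2 fell, within 22Rv1 12 rose and 1 fell, and within LNCaP95 20 rose and 1 fell. The effect differed between lines for 15 of the 28. GPNMB is a transmembrane glycoprotein of melanosomes and lysosomes. GPNMB stood at 959, 752 and 777 normalised counts in the LNCaP libraries at 500 nM, against 122, 63.5 and 63.0 in DMSO. In 22Rv1, GPNMB had 1179.8, 896 and 984 at 500 nM, against 163, 152 and 142 in DMSO. In LNCaP95, GPNMB had 3421, 1739 and 1616 at 500 nM, against 192, 224 and 179.9 in DMSO. GPNMB was at 752 or more in each library at 500 nM and at 224 or less in each in DMSO, and LNCaP95 500 nM replicate 1 was the highest. It was among the rises chosen for no overlap in any line, so the lack of overlap within lines follows from that choice. Its average log2 fold change was 3.17 ± 0.16 (adjusted p = 2.94e-10), with 3.37 ± 0.24 in LNCaP, 2.73 ± 0.24 in 22Rv1 and 3.42 ± 0.24 in LNCaP95, and a difference between lines was not detected (adjusted p = 0.173). SQSTM1 stood at 36363, 29479 and 27419 normalised counts in the LNCaP libraries at 500 nM, against 17025, 11766 and 12498 in DMSO. In 22Rv1, SQSTM1 had 7213, 6496 and 7008 at 500 nM, against 3865, 3550.0 and 3384 in DMSO. In LNCaP95, SQSTM1 had 34408, 26202 and 29688 at 500 nM, against 11699, 12059.7 and 10695 in DMSO. SQSTM1, the autophagy receptor p62, did not overlap in any line and rose by 1.17 ± 0.089 (adjusted p = 1.23e-07). NEU1, the lysosomal sialidase, rose by 1.09 ± 0.076 (adjusted p = 4.78e-08), with near-equal line effects of 1.10 in LNCaP, 1.02 in 22Rv1 and 1.14 in LNCaP95. WIPI1, which acts in autophagosome formation, rose by 1.02 ± 0.11 (adjusted p = 5.67e-06), most in LNCaP95 (1.44). CTSD and ATP6V0D1, a cathepsin and a proton pump subunit, complete the 6 and were named after their values were seen. Of 18 tested genes for subunits and accessory proteins of the V-ATPase, the proton pump of lysosomes, 15 rose and 1 fell on average and 7 rose within each line, with medians of 0.29 in LNCaP, 0.33 in 22Rv1 and 0.43 in LNCaP95. This family was set up after its values were seen. Enzymes that act on sphingolipids in the lysosome, SMPD1 at 0.50 and ASAH1 at 0.57, also rose within each line and were likewise named after their values were seen.

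Genes of the NRF2 and pentose phosphate list, which protect against oxidation and make NADPH, rose on average in 9 of 18 cases and fell in 0, with a median of 0.48. Within LNCaP 5 rose and 1 fell, within 22Rv1 8 rose, and within LNCaP95 9 rose and 3 fell. The effect differed between lines for 8 of the 18. The 3 called higher within each line were ME1, given above, PGD, an NADPH-making dehydrogenase, and TXNRD1, a thioredoxin reductase. PGD averaged 0.51 ± 0.077 (adjusted p = 0.000196), and TXNRD1 averaged 0.42 ± 0.069 (adjusted p = 0.000365). These calls within each line were lost in 5 of 18 fits for PGD and in 9 of 18 for TXNRD1 when 1 library was left out. The count of 3 then ranged between 1 and 7, moving with LNCaP DMSO replicate 1, 22Rv1 DMSO replicate 2, and 22Rv1 500 nM replicates 1 and 2. It was 7 without the LNCaP replicate 1 libraries and 22Rv1 DMSO replicate 3. NQO1, a classic NRF2 target, averaged 0.02 ± 0.14 (adjusted p = 0.942) and was named after its values were seen.

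Other rises called within each line ranked high by their smallest line effect. AGR2, IGFBP3, PRSS23, ABCA12, THSD4 and AGPAT9 were chosen for no overlap in any line, so the lack of overlap follows from that choice. AGR2 encodes a disulfide isomerase of secretory epithelium. AGR2 stood at 383, 641 and 607 normalised counts in the LNCaP libraries at 500 nM, against 8.08, 8.53 and 15.0 in DMSO. In 22Rv1, AGR2 had 409, 277 and 269 at 500 nM, against 75.1, 75.8 and 75.3 in DMSO. In LNCaP95, AGR2 had 16602, 22279 and 20715 at 500 nM, against 5246, 7663 and 6400.5 in DMSO. AGR2 was higher in each treated library, and the LNCaP DMSO libraries had at most 14.99. It rose by 3.08 ± 0.43 (adjusted p = 7.91e-05), and its line effects of 5.57 in LNCaP, 2.04 in 22Rv1 and 1.63 in LNCaP95 differed (adjusted p = 7.06e-08). IGFBP3 stood at 283, 415 and 369 normalised counts in the LNCaP libraries at 500 nM, against 34.6, 84.4 and 48.0 in DMSO. In 22Rv1, IGFBP3 had 2800.1, 4075 and 4383 at 500 nM, against 552, 780.1 and 764 in DMSO. In LNCaP95, IGFBP3 had 6190.2, 12368 and 10224 at 500 nM, against 1618, 6152 and 4749.7 in DMSO. IGFBP3, a binding protein of insulin-like growth factors, rose by 2.17 ± 0.26 (adjusted p = 1.9e-05), with the LNCaP95 call lost without DMSO replicate 1. PRSS23, a secreted serine protease, rose by 1.93 ± 0.20 (adjusted p = 4.45e-06), ABCA12, a lipid transporter known from skin, by 1.65 ± 0.16 (adjusted p = 1.55e-06), and THSD4, a protein of extracellular microfibrils, by 1.29 ± 0.13 (adjusted p = 4.46e-06). AGPAT9, now called GPAT3, an acyltransferase of glycerol-3-phosphate, had 2.22 in LNCaP, 1.80 in 22Rv1 and 1.17 in LNCaP95. LURAP1L and GPR1, with average log2 effects of 2.87 and 2.39, were among the largest average effects that were not called in each line: LURAP1L had 0.94 in 22Rv1 (adjusted p = 0.159), and GPR1 had 0.80 in LNCaP (adjusted p = 0.387).

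**Figure D4:**
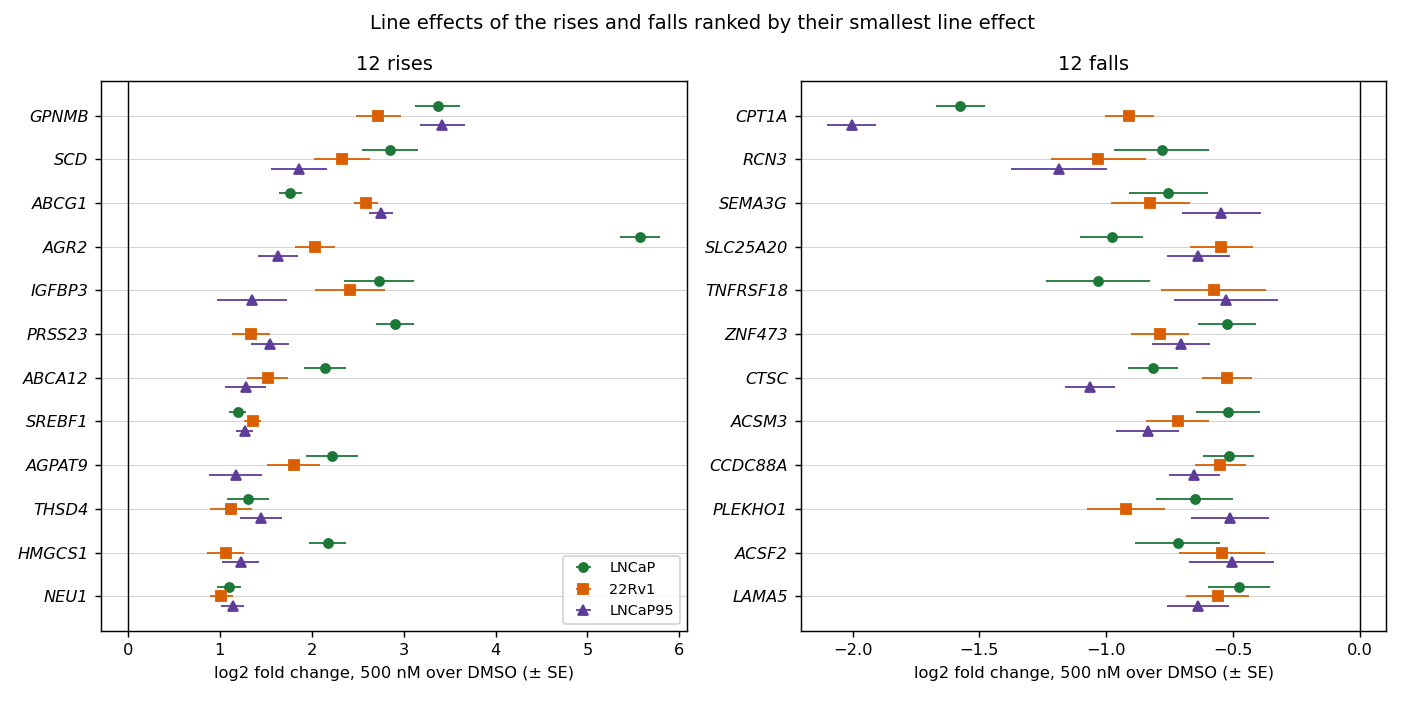
Log2 fold changes ± SE (500 nM over DMSO, x axis) in LNCaP (circles), 22Rv1 (squares) and LNCaP95 (triangles) of the 12 rises and 12 falls with the largest smallest line effect. GPNMB, SREBF1 and NEU1 had similar effects in the lines, AGR2 in LNCaP (5.57) stood far beyond the others, and CPT1A was the largest of the plotted falls in LNCaP and LNCaP95, while in 22Rv1 RCN3 (-1.03) and PLEKHO1 (-0.92) were beyond it (-0.91).

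Genes outside fatty acid oxidation also fell. RCN3 stood at 108, 137 and 125 normalised counts in the LNCaP libraries at 500 nM, against 284, 201 and 166 in DMSO. In 22Rv1, RCN3 had 31.6, 30.0 and 45.9 at 500 nM, against 65.9, 77.0 and 76.3 in DMSO. In LNCaP95, RCN3 had 143, 143 and 165 at 500 nM, against 320.5, 336 and 375 in DMSO. RCN3, a calcium-binding protein of the endoplasmic reticulum, was lower in each treated library and averaged -1.0 ± 0.12 (adjusted p = 1.21e-05). CTSC, the lysosomal dipeptidyl peptidase, went against the lysosomal list, at -0.80 ± 0.077 (adjusted p = 1.62e-06), with -0.82 in LNCaP, -0.52 in 22Rv1 and -1.06 in LNCaP95. CTSC stood at 194, 195 and 187 normalised counts in the LNCaP libraries at 500 nM, against 335, 373 and 312 in DMSO. In 22Rv1, CTSC had 416, 403 and 439 at 500 nM, against 535, 656 and 624 in DMSO. In LNCaP95, CTSC had 472, 502 and 511 at 500 nM, against 1042, 961 and 1106 in DMSO. The falls named in this paragraph were chosen for no overlap in any line, so the lack of overlap follows from that choice. SEMA3G, a secreted semaphorin, averaged -0.71 ± 0.093 (adjusted p = 4.48e-05), ZNF473, a zinc finger protein, -0.67 ± 0.071 (adjusted p = 5.32e-06), PLEKHO1, a signalling adaptor, -0.69 ± 0.10 (adjusted p = 8.01e-05), CCDC88A, an actin-binding protein, -0.57 ± 0.06 (adjusted p = 5.13e-06), and LAMA5, a laminin chain, -0.56 ± 0.074 (adjusted p = 4.88e-05). TNFRSF18, a receptor of the tumour necrosis factor family, averaged -0.71 ± 0.13 (adjusted p = 0.000873) and was not called within 22Rv1 (-0.58, adjusted p = 0.0776).

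CDKN1A rose in each line, while mitosis and DNA replication genes took opposite directions in LNCaP and LNCaP95. CDKN1A stood at 2509.6, 2979 and 2992 normalised counts in the LNCaP libraries at 500 nM, against 2201, 1403 and 1541 in DMSO. In 22Rv1, CDKN1A had 2095, 2090.4 and 2346 at 500 nM, against 1096, 1129 and 1042 in DMSO. In LNCaP95, CDKN1A had 2652, 2442 and 2391 at 500 nM, against 1182, 1155 and 918 in DMSO. CDKN1A, the inhibitor p21, rose by 0.98 ± 0.088 (adjusted p = 1.08e-06), with no overlap in any line. CDKN2B, the inhibitor p15, averaged 2.01 ± 0.30 (adjusted p = 0.000141), with 1.85 in LNCaP, 0.98 in 22Rv1 and 3.21 in LNCaP95, and was not called within 22Rv1 (adjusted p = 0.0902). MYC averaged -0.46 ± 0.075 (adjusted p = 0.000348) and was called lower within each line, but its groups overlapped in LNCaP95, where it had 4106, 5132 and 5310.5 at 500 nM, against 6768, 4909.5 and 6608 in DMSO. That call within each line was lost without 22Rv1 DMSO replicate 2, 22Rv1 500 nM replicate 1, LNCaP95 DMSO replicate 1 or 3, or LNCaP95 500 nM replicate 1. Of 24 genes of ribosome biogenesis, including MYC, 0 rose and 8 fell on average, a count that ranged between 5 and 11 without 1 library and moved over 1.5 times without LNCaP95 DMSO replicates 1, 2 or 3 or 500 nM replicate 2. Of the 8, 5 were lower in each line. Within LNCaP95, 22 of the 24 fell and 1 rose, within LNCaP 6 fell, and within 22Rv1 1 fell and 2 rose. The effect differed between lines for 20 of the 24. Of the 26 mitosis genes, 0 were called on average in either direction: within LNCaP 17 rose, within 22Rv1 1 fell, and within LNCaP95 26 fell, and the effect differed between lines for 26 of 26. EdgeR and DESeq2 also called 0 at an adjusted p under 0.05. At an unadjusted p under 0.05, 0 were higher by each tool, and 1 was lower by limma, 1 by edgeR and 3 by DESeq2. Leaving out LNCaP DMSO replicate 3 or 500 nM replicate 3 gave up to 2 falls on average. DNA replication genes split alike, with 23 of 35 higher in LNCaP and 35 of 35 lower in LNCaP95, and 6 fell on average. That count ranged between 3 and 10 without 1 library, moving with LNCaP DMSO replicate 3, 22Rv1 500 nM replicate 3 and each of the 6 LNCaP95 libraries, and was 2 without the 4 libraries left out above. The mitosis genes had a mean log2 value of 9.78 to 10.02 in the LNCaP libraries at 500 nM, all below LNCaP DMSO replicate 1 and above the other DMSO libraries. CDK1, the mitotic kinase, had 3015, 3537 and 3591 at 500 nM, against 1992, 960.4 and 889 in DMSO in LNCaP and 2198, 3895 and 3718 at 500 nM, against 11917, 14901 and 12434 in DMSO in LNCaP95.

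The amino acid response controlled by ATF4 was no part of the shared response. Of 34 tested genes, 28 fell within LNCaP and 33 rose within LNCaP95, with medians of -1.10 in LNCaP, 0.05 in 22Rv1 and 1.22 in LNCaP95, and the effect differed between lines for 34 of 34. ATF4 stood at 7037, 10663 and 9196 normalised counts in the LNCaP libraries at 500 nM, against 17940.1, 20609 and 19498 in DMSO. In 22Rv1, ATF4 had 12808, 13538 and 13881 at 500 nM, against 16134, 15217 and 12370.3 in DMSO. In LNCaP95, ATF4 had 18195, 16588 and 17572 at 500 nM, against 9700.4, 8479 and 8053 in DMSO. ATF4 was lower at 500 nM in LNCaP and higher in LNCaP95 with no overlap, and 22Rv1 had a log2 effect of -0.11 (adjusted p = 0.603). The average effect of 3 rises and 1 fall in this list came from genes with unlike lines, and the rises numbered 1 to 3 when 1 library was left out, moving with each of the 6 LNCaP95 libraries. Among 23 genes of endoplasmic reticulum chaperones and the unfolded protein response, 9 rose and 0 fell on average. Within LNCaP 3 rose and 3 fell, within 22Rv1 4 rose, and within LNCaP95 15 rose. The effect differed between lines for 13 of the 23. The number called higher within each line was 0, near the 1.40% of all genes tested. It was 1 without LNCaP DMSO replicate 1, 22Rv1 DMSO replicate 1 or 3 or LNCaP95 500 nM replicate 1, and 2 without the 4 libraries left out above. EIF2AK3, the kinase PERK, averaged 0.90 ± 0.12 (adjusted p = 5.1e-05), with 0.30 in 22Rv1, which missed the threshold (adjusted p = 0.0952).

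Androgen-induced genes were mixed. Of 26 tested, 3 rose and 5 fell on average, 0 within each line (1 rise without LNCaP DMSO replicate 1 or 2, and 1 fall without LNCaP DMSO replicate 1 or LNCaP95 500 nM replicate 3), with a median of 0.02. Within LNCaP 3 rose and 10 fell, within 22Rv1 2 rose and 2 fell, and within LNCaP95 10 rose and 4 fell. The effect differed between lines for 18 of the 26. KLK3, which encodes prostate-specific antigen, had 2482, 3637 and 3752 at 500 nM, against 12816, 12836 and 11703 in DMSO in LNCaP and 1113, 1197 and 1559 at 500 nM, against 854, 751 and 900.1 in DMSO in LNCaP95. It was called lower in LNCaP and 22Rv1 and higher in LNCaP95.

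Of the 32 genes of the TCA cycle and the nuclear-encoded respiratory chain, 0 rose and 6 fell on average. In LNCaP95, 24 of them fell, and in LNCaP and 22Rv1 the medians were -0.02 in both, and 0 fell within each line. The count of 6 ranged between 2 and 9 without 1 library and moved with LNCaP95 DMSO replicate 3 and with each LNCaP95 500 nM library, and was 2 without the 4 libraries left out above. The 13 mitochondrially encoded genes had medians of 0.45 in LNCaP, 0.49 in 22Rv1 and 0.55 in LNCaP95, with 1 called on average, MT-ND6 (0.57 ± 0.20, adjusted p = 0.0438). That count ranged between 0 and 12 without 1 library, and the share of mitochondrial reads was 1.99% to 6.92% at 500 nM, against 1.69% to 3.19% in DMSO. The part of that share in the result was not tested. EdgeR called 7 of the 13 higher on average and DESeq2 called 9, and limma called 10 without the LNCaP replicate 1 libraries and 22Rv1 DMSO replicate 3. With LNCaP95 500 nM replicate 2 left out too, limma called 2, and the LNCaP95 median was 0.14. At an unadjusted p under 0.05, limma gave 12 higher. Cytosolic ribosomal protein genes fell in 27 of 28 cases within LNCaP and were called on average in 0 of 28 by limma, edgeR and DESeq2, with 3 lower at an unadjusted p under 0.05 in limma. Scaled to the same total, 2 of them were lower on average.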

How the data were processed

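Poly(A)-selected RNA of 3 cell lines was sequenced in paired ends from directional libraries, per the labels' protocols. The authors used STAR 2.3.1z4, featureCounts and DESeq with genome build hg19, per the submitters' processing notes. The deposited values are a normalised signal, that is, counts of genes after division by 1 size factor for each library, and no label gives more of its making. Whether counting used strand is not given in these sources, so genes that overlap another gene are uncertain, as are genes with near-identical copies such as the histone clusters and UGT2B17. All values of the 27 libraries were whole multiples of 1 read (100% within a tolerance of 1e-06), so whole reads were recovered, with 1 read worth 0.759 to 1.32 units in the 18 libraries used. Columns of no sample numbered 0.

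Values were taken as log2(value + 1) and tested two-sided with limma 3.58.1 (intensity trend, R 4.3.3), with Benjamini-Hochberg adjustment over 11612 genes, called at 0.05. The average effect came from a fit with the line as a block. Line effects and the F test of their difference (2 degrees of freedom) came from 1 fit of 6 groups, so the lines share 1 spread per gene. Errors after ± are standard errors of log2 effects, or standard deviations of levels (n = 3). The recovered reads were tested with edgeR 4.0.16 and DESeq2 1.42.0 as alternatives. The fits were also run on simulated data with the same dispersion for every gene and no paired or outlying libraries. That run gives no error rate for the real data.

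Named genes were a panel of 32, the 12 rises and 12 falls with the largest smallest line effect (called on average, no overlap in any line, mean of the higher group at least 50), up to 4 called members of each of 31 gene lists by smallest p, the 5 genes most different between lines among those called in opposite directions, and the 3 largest average effects not called in each line. Not every gene of this rule is reported here. The members, lists and tests were chosen with earlier results of these data known. Lists are described by counts and medians and were not tested. Promoters were matched to RefSeq by symbol for 9598 of 11612 genes, and FASN and ABCG1 were not among them.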

Additional observations from a re-analysis of the deposited data

Results flagged for a closer look

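Of all 11612 genes tested, the 500 nM effect differed between lines for 5201 (44.8%). At least 1 pair of lines had opposite calls for 1054 of the genes tested. Of 131 genes taken from the naming rule, the effect differed between lines for 76. Of these 76, 16 were also called in opposite directions in a pair of lines. The rule took some of the 16 because of their opposite calls, so 16 of 131 is no rate for genes at large. The p given for each of the 16 is that of limma's F test of the difference between lines, adjusted over 11612 genes. These genes are no part of the shared response, and the average over the lines does not show their opposite directions. It called GDF15, WARS and ATF3 higher all the same.

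In the ATF4 system, ATF4 itself (adjusted p = 3.06e-07), ASNS, the asparagine synthetase (3.26e-07), and TRIB3, a pseudokinase (2.13e-07), were called lower in LNCaP and higher in LNCaP95. ASNS had log2 effects of -1.51 in LNCaP, 0.27 in 22Rv1 and 1.18 in LNCaP95. PCK2, the mitochondrial PEP carboxykinase (2.11e-08), had -1.83 in LNCaP, 0.27 in 22Rv1 and 1.60 in LNCaP95. WARS, the tryptophan tRNA synthetase (1.65e-06), and GDF15, a stress cytokine (3.03e-06), were lower in LNCaP and higher in both other lines. DDIT3, the factor CHOP (1.73e-06), was called lower in 22Rv1 and higher in LNCaP95, with -0.27 in LNCaP that was not called. ATF3, a stress-induced factor (1.73e-06), was called lower in 22Rv1 and higher in both LNCaP and LNCaP95.

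CDK1 (7.76e-07) and MKI67, a marker of cycling cells (0.00106), were called higher in LNCaP and lower in LNCaP95. MKI67 had log2 effects of 1.10 in LNCaP, -0.14 in 22Rv1 and -1.71 in LNCaP95. Its LNCaP libraries had 1506, 1489 and 1608 at 500 nM, against 1820.0, 534 and 374 in DMSO, so that DMSO replicate 1 lay above each treated library. KLK3 (1.9e-07) and ELOVL6 (7.08e-07) had the line effects described above.

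The smallest p among genes called in opposite directions were those of RCN1, a calcium-binding protein of the endoplasmic reticulum (2.18e-09), TSC22D3, a glucocorticoid-induced regulator (9.17e-09), NDUFA4L2, a hypoxia-induced mitochondrial protein (9.17e-09), and BTG1, an antiproliferative factor (1.83e-08). NDUFA4L2 stood at 24.4, 29.0 and 34.8 normalised counts in the LNCaP libraries at 500 nM, against 248, 183 and 205 in DMSO. In 22Rv1, NDUFA4L2 had 207, 164 and 156 at 500 nM, against 253, 201 and 182 in DMSO. In LNCaP95, NDUFA4L2 had 81.3, 96.8 and 67.7 at 500 nM, against 22.0, 15.7 and 15.2 in DMSO. NDUFA4L2 was lower in LNCaP and higher in LNCaP95 without overlap, at -2.81 in LNCaP, -0.26 in 22Rv1 and 2.16 in LNCaP95. RCN1, TSC22D3 and BTG1 had the same pair of directions, with -1.35, -2.03 and -1.57 in LNCaP and 1.05, 1.47 and 1.39 in LNCaP95. Groups of 3 are too small to tell an outlying library from ordinary spread. Fits that left out 1 library show only how far a result depends on it.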

How the results depend on the processing

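Of 115 genes taken from the naming rule and called on average, 74 kept that call in each alternative that tested them other than a single value per line, which called none. LURAP1L, CDKN2B, AGPAT9, UGT2B17 and ETV5, among the 74, were not tested in every alternative. Many of the 115 were chosen in these data by small p, large line effects or no overlap, so 74 is no rate for called genes at large. Of all 2238 genes called on average with 1 direction in each line, edgeR kept 2145 and DESeq2 2218. Without LNCaP, 1698 of the 2238 were kept, without 22Rv1 1650 and without LNCaP95 1058. Array weights gave 367 rises and 142 falls within each line. The mean of the 3 line effects in the 6-group fit called 2306 genes higher and 2076 lower. With a single value per line, 0 genes were called higher or lower on average, and 0 of them with the same direction in each line, against 1532 and 1105 for edgeR and 1680 and 1353 for DESeq2 with libraries as replicates. A fit of all 27 libraries called 1979 lower on average. Without LNCaP, 1649 fell on average with the same direction in each remaining line, 449 rose and 303 fell within each line, and the effect differed between lines for 3414. Without 22Rv1, 607 rose and 276 fell within each line. Without LNCaP95, 985 rose and 760 fell on average, 85 fell within each line, and the effect differed for 1547. Fewer lines make fewer conditions to pass. Without the LNCaP replicate 1 libraries of both groups, 22Rv1 DMSO replicate 3 and LNCaP95 500 nM replicate 2, a choice made after seeing the data, 703 fell on average. A separate fit of each line gave 27 falls within each line. Leaving out 1 library gave 21 to 61 falls and 115 to 226 rises within each line. Scaling moved the share of higher calls on average to 52.1% (same total) and 59.7% (TMM), against 56.9%. The cause of these shifts was not tested.

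Effects near 0, none of them called, changed sign. RCN1 in 22Rv1 was -0.061 at equal totals and -0.034 with array weights, and ranged between -0.046 and 0.096 without 1 library. TMPRSS2 in LNCaP95 was -0.10 with array weights and between -0.11 and 0.27 without 1 library, and BTG1 in 22Rv1 ranged between -0.17 and 0.022.

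The replicate numbers are shared by the groups of each line. Same-numbered 500 nM and DMSO libraries correlated by 0.0585 to 0.336 in their deviations, 8 of 9 pairs above 0.1, and 17 of 18 libraries correlated best with their own number, a hint from the data and not from the design, so the pairing was not taken as given. With the replicate block within each line, 275 genes rose and 79 fell within each line, and 1159 rose and 768 fell on average. The 2755 genes that passed the filter in only some lines were not tested, and the part of depth in that number was not tested.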

Other observations

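Further gene lists had calls in both directions. Of 25 p53 targets, 6 rose and 3 fell on average, and CDKN1A was the 1 that rose within each line. TP53INP1, an inducer of autophagy and cell death, averaged 0.99 ± 0.19 (adjusted p = 0.00113), and DDB2, a DNA damage sensor, -0.38 ± 0.091 (adjusted p = 0.0062). The 6 were between 3 and 8 without 1 library, moving with 22Rv1 500 nM replicate 2, LNCaP95 DMSO replicate 3 and LNCaP95 500 nM replicate 2, and the 3 falls were 1 without the 4 libraries left out above. Of 17 HIF targets, 5 rose and 2 fell (1 without any single LNCaP library, 22Rv1 DMSO replicate 2, 22Rv1 500 nM replicate 1, LNCaP95 DMSO replicate 1 or 3, or LNCaP95 500 nM replicate 1, and 0 without the 4 libraries left out above), and P4HA2, a collagen prolyl hydroxylase, rose within each line by 0.65 in LNCaP, 0.77 in 22Rv1 and 0.79 in LNCaP95. Of 18 G1 cyclins, kinases and inhibitors, 3 rose and 2 fell, with 1 fall without LNCaP95 DMSO replicate 2 or 3 or any single LNCaP95 500 nM library. CDKN1A was the 1 of them that rose within each line, and there were 2 without LNCaP DMSO replicate 1. CDKN2A, the inhibitor p16 and ARF, averaged -0.51 ± 0.081 (adjusted p = 0.000277), opposite to its neighbour CDKN2B. Of 28 genes of glycolysis, 2 rose and 4 fell, with MPC1, a subunit of the mitochondrial pyruvate carrier, at 0.37 ± 0.076 (adjusted p = 0.00231). Without LNCaP DMSO replicate 1, 5 of these rose, and 1 of them within each line. The 4 falls ranged between 2 and 5 without 1 library, moving with LNCaP DMSO replicate 1, LNCaP 500 nM replicates 1 and 3, LNCaP95 DMSO replicates 1 and 3 and LNCaP95 500 nM replicate 1, and were 0 without the 4 libraries left out above. Of 17 interferon-stimulated genes, 2 rose and 1 fell, with 4 rises without 22Rv1 DMSO replicate 1. Of 17 immediate early and MAPK feedback genes, 2 rose (1 without any single LNCaP or LNCaP95 library) and 4 fell, with ETV5 at 0.87 ± 0.16 (adjusted p = 0.00103) and SPRY1 at -0.65 ± 0.15 (adjusted p = 0.00502). Androgen-repressed genes had 1 rise and 1 fall of 7, cytosolic tRNA synthetases 1 and 1 of 20, with 0 to 2 falls without 1 library, and heat shock genes 0 and 0 of 15 by limma, edgeR and DESeq2, also at an unadjusted p under 0.05. The lines were unlike behind these averages. Of the tRNA synthetases, 14 fell within LNCaP, 3 rose within 22Rv1, and 9 rose and 5 fell within LNCaP95. Of the heat shock genes, 2 rose and 1 fell within LNCaP, 5 rose within 22Rv1 and 8 fell within LNCaP95. The effect differed between lines for 18 of 20 and 11 of 15. Of the 28 glycolysis genes, 3 rose and 14 fell within LNCaP95.

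Replication-dependent histone genes, a family set up after its values were seen, rose on average in 13 of 25 tested cases and fell in 0. HIST2H2BE (1.39 in LNCaP, 0.82 in 22Rv1 and 1.52 in LNCaP95), HIST1H2BK (0.92 in LNCaP, 0.75 in 22Rv1 and 0.52 in LNCaP95) and HIST1H3H (1.01 in LNCaP, 0.55 in 22Rv1 and 0.42 in LNCaP95) rose within each line. Most such transcripts lack a poly(A) tail, and these libraries were poly(A)-selected.

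The 9 libraries at 100 nM entered no comparison other than the fit of all 27 libraries. In LNCaP, GPNMB averaged 82.9 ± 34.1 normalised counts in DMSO, 698 ± 219.8 at 100 nM and 829 ± 113 at 500 nM (SD, n = 3 each). In LNCaP95 it averaged 199 ± 22.7 in DMSO, 2242 ± 854 at 100 nM and 2259 ± 1008 at 500 nM. CPT1A in LNCaP95 averaged 3349 ± 232 in DMSO, 864 ± 84.4 at 100 nM and 836 ± 86.1 at 500 nM, and in LNCaP it averaged 3421 ± 294 in DMSO, 2014 ± 810.2 at 100 nM and 1146 ± 55.8 at 500 nM. FASN in LNCaP had a wide spread at 100 nM, with 227517 in replicate 1, against 51994 and 45537 in the others.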
